A study of Mus musculus with 6 samples.

Results

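The genes described here encode the sterol regulatory element-binding proteins (SREBPs) and the proteins that carry, hold back and cleave them: *Srebf1*, *Srebf2*, *Scap*, *Insig1*, *Insig2*, *Mbtps1* and *Mbtps2*. They were chosen by gene symbol for their place in this pathway, and make up 7 of the 48967 gene identifiers in the count tables. Transcripts were counted in 6 libraries of 2-cell mouse embryos at day 2, 3 from control and 3 from delipidated zygotes, with each library made from a pool of 3 embryos of strain F1 (C57Bl/10 X CBA/H), genotype wt. Lipid droplets of the delipidated group were removed at the zygote stage by centrifugation in medium with cytochalasin B, followed by aspiration through a laser opening in the zona pellucida. Embryos of both groups were then grown in KSOM medium without fatty acids, over the span of 0.5 to 2.0 days post coitum, and the comparison asks which transcripts differ after the lipid store is taken away. The descriptions do not say that control zygotes were centrifuged, exposed to cytochalasin B or opened by laser, so the loss of lipid and the handling cannot be told apart. The embryos of both groups came from one common set of hormone-stimulated females, and p-values measure only the spread between these pools.

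SREBPs are made as membrane proteins of the endoplasmic reticulum, where they bind the escort protein SCAP. When sterols are scarce, SCAP takes them in COPII vesicles to the Golgi, where site-1 and site-2 proteases cut them in turn and release a transcription factor that enters the nucleus and activates genes of cholesterol and fatty acid synthesis, whereas sterol-laden membranes let INSIG proteins hold the complex back. At the 2-cell stage the mouse embryo carries transcripts stored by the oocyte beside those of its newly activated genome. Cleavage of the proteins was not measured, and the values below are RNA levels.

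Gene counts were sums over exonic parts, the non-overlapping pieces of a gene's exons for which reads were counted. These sums came to 12164963, 16165958 and 12980787 in control replicates 1, 2 and 3, and to 20059460, 16332103 and 14683741 in delipidated replicates 1, 2 and 3. A read that spans several parts is counted in each of them, so the sums exceed the number of reads, and floors given for a count of 0 cover counting error only. Levels are in CPM, the gene count scaled to the normalised size of its library, with the SD over 3 libraries.

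The labelled stage was checked against marker genes. Of the 9 genes of the 2-cell stage, all 9 had counts, with summed levels of 478, 249 and 449 CPM in control replicates 1, 2 and 3, and of 299, 398 and 512 CPM in delipidated replicates 1, 2 and 3. The most abundant of them per length was *Tcstv3*, and *Dux* had a count of 0 in delipidated replicate 1. All 12 maternal oocyte genes had counts in every library, led by *Oosp1*, and their sums ran from 953 to 1477 CPM in the controls and from 1101 to 1679 CPM after delipidation. The groups overlapped in both lists, and every library held counts of both.

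Among the 7 SREBP genes, the factor gene *Srebf1* stood lower in every delipidated pool than in every control pool, while the other 6 overlapped between the groups. All 7 passed the filter on low counts, and 0 were called by edgeR at an adjusted p under 0.05 with a log2 fold change beyond 1. The same test called 0% of the 16020 genes lower and 0% higher. At an unadjusted p under 0.05, edgeR gave 1 SREBP gene as lower and 0 as higher, where 1.74% of all genes tested were lower and 1.15% higher. DESeq2 without a prior filter on low counts called 0 of the 7 genes, and 40 genes lower and 9 higher over the whole table. Groups that did not overlap were found for 1 SREBP gene on the lower side and 0 on the higher side, against 5.05% and 3.81% of all genes tested. Of the 7 log2 fold changes 5 were negative and 2 positive, with a median of -0.11 beside 0.00 over all genes. In pools of whole embryos, fewer cells that contain a transcript and less of it per cell cannot be told apart.

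**Figure D1:**
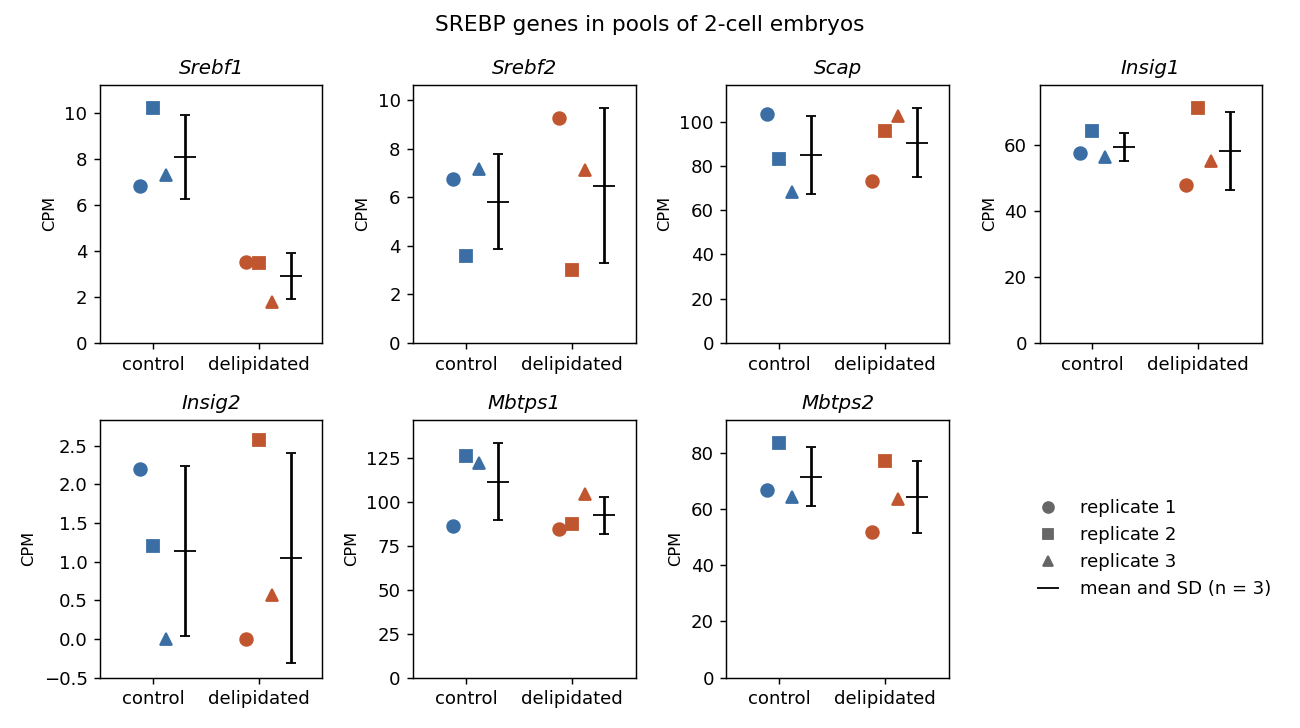
Level of each SREBP gene in CPM in the 3 control (blue) and 3 delipidated (orange) libraries, with marker shapes for the replicate and a bar for the mean and SD. *Srebf1* is the gene whose groups stand apart, between 6.83 and 10.2 CPM in control and between 1.76 and 3.51 CPM in delipidated embryos.

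*Srebf1* (ENSMUSG00000020538, minus strand, chr11:60199089-60222581, GRCm38) encodes SREBP-1, the factor best known for driving genes of fatty acid synthesis. Its level was 6.83, 10.2 and 7.30 CPM in control replicates 1, 2 and 3, and 3.51, 3.50 and 1.76 CPM in delipidated replicates 1, 2 and 3. All 3 delipidated pools lay below the lowest control pool, with the lowest value in delipidated replicate 3. The mean of the delipidated libraries was 0.36 times that of the controls, and an exact two-sided permutation test gave 0.1, the smallest p that 3 against 3 libraries allow. In edgeR the log2 fold change was -1.47 (95% confidence interval -2.91 to -0.03) at an unadjusted p of 0.0465 and an adjusted p of 1.00, lower in 3 of 3 delipidated libraries. By that p, *Srebf1* ranked 436 among all genes tested, of which 463 had a p under 0.05.

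The unadjusted p of *Srebf1* fell on either side of 0.05 when single libraries were left out, in fits that also rest on fewer libraries. It was 0.0730 without control replicate 1, 0.147 without control replicate 2 and 0.0734 without control replicate 3. On the delipidated side it was 0.0471 without replicate 1, 0.0651 without replicate 2 and 0.122 without replicate 3. The sign held throughout these fits, with log2 fold changes from -1.62 to -1.21.

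The counts behind *Srebf1* were few and lay in scattered patches of the gene. They summed to 81, 169 and 96 in control replicates 1, 2 and 3, and to 71, 57 and 25 in delipidated replicates 1, 2 and 3, over 45 exonic parts of 5568 bp. Counts fell on 18, 20 and 11 of these parts in control replicates 1, 2 and 3, and on 8, 8 and 7 in delipidated replicates 1, 2 and 3. Each control thus had counts on more parts than any delipidated pool, but the length of these parts overlapped, at 2037, 3110 and 1457 bp in control replicates 1, 2 and 3, and at 512, 941 and 1742 bp in delipidated replicates 1, 2 and 3. None of the 45 parts had a count in all 6 libraries, the best covered had one in 4, and 9 had one in a single library. The highest count on any part was 19, in control replicate 3, and 16 was the highest in delipidated embryos, in replicate 1. Neighbouring parts often had equal counts, as where 3 adjoining parts of delipidated replicate 2 had 9 each.

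The covered region also differed between pools of a group. In the 5′ portion of *Srebf1*, the first 19 parts, counts were 16, 91 and 45 in control replicates 1, 2 and 3, and 0, 57 and 3 in delipidated replicates 1, 2 and 3. In the middle portion, the next 16 parts, they were 20, 70 and 51 in the controls, and 44, 0 and 0 after delipidation. The last 10 parts held 45, 8 and 0 counts in the controls, and 27, 0 and 22 after delipidation. Delipidated replicate 1 thus had no count in the 5′ portion, and delipidated replicate 2 had all of its counts there.

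**Figure D2:**
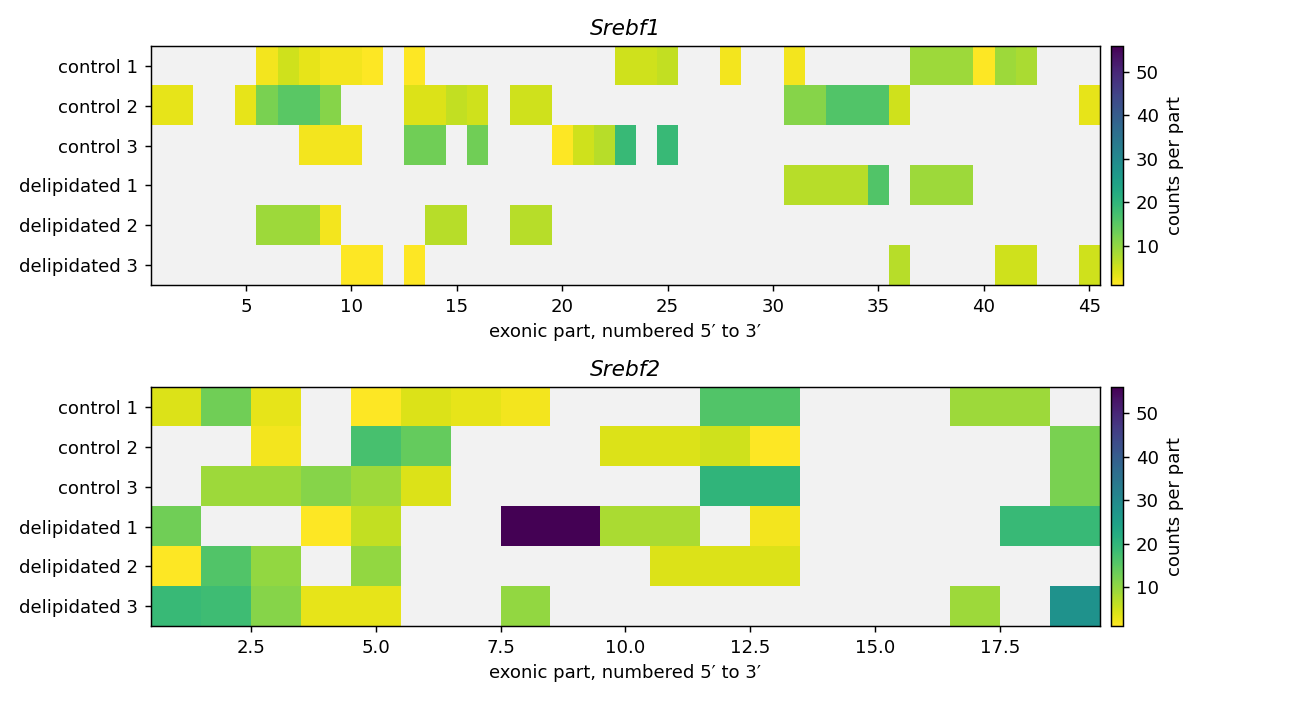
Raw counts on each exonic part of *Srebf1* and *Srebf2*, numbered from 5′ to 3′ on the horizontal axis, with one library per line and colour for the count; grey parts had a count of 0. *Srebf1* counts lie in separate patches that differ between libraries, and the darkest cells are the pair of *Srebf2* parts with 56 counts each in delipidated replicate 1.

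*Srebf1* has alternative first exons, known to give SREBP-1 forms that differ at the amino end, and the counts hardly reached them. The first exon of transcript Srebf1-207, at chr11:60210336-60210465, had 0 counts in all 6 libraries. Those of the coding transcript Srebf1-201, at chr11:60220453-60220604, and of the non-coding Srebf1-204, at chr11:60222523-60222581, had 3 counts each, in both cases in control replicate 2. Counts this few, in control replicate 2 alone, do not show which start *Srebf1* used in 2-cell embryos. The 3′ end lies across from *Rai1* on the opposite strand, and the part that covers its exon held 0, 3 and 0 counts in control replicates 1, 2 and 3, and 0, 0 and 5 in delipidated replicates 1, 2 and 3.

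Other quantities moved with the groups as *Srebf1* did. The number of genes with at least 1 count was 22855, 22437 and 20582 in control replicates 1, 2 and 3, and 17091, 19408 and 20158 in delipidated replicates 1, 2 and 3, so that every delipidated library detected fewer genes than any control. Stromal cell markers, of which 8 of 8 had counts, summed to 26.0, 20.6 and 54.3 CPM in control replicates 1, 2 and 3, and to 1.93, 3.99 and 6.35 CPM in delipidated replicates 1, 2 and 3. The groups were apart here as well. *Sparc* was the most abundant stromal marker per length, and *Vim*, *Col1a1*, *Col3a1* and *Lum* had counts of 0 in all 3 delipidated libraries, although *Lum* had no more than 2 counts in a control. *Vim* had 152, 145 and 300 counts in control replicates 1, 2 and 3, and *Col3a1* had 10, 8 and 0. *Sparc*, *Col1a2* and *Pdgfra* overlapped between the groups, with negative log2 fold changes of -3.68, -1.46 and -0.68. *Dcn* went the other way, with 0 counts in all 3 controls and 27 in delipidated replicate 3. The part of these quantities in the *Srebf1* result was not tested.

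Markers of other cells around the embryo overlapped between the groups. The paper states that zygotes were stripped of cumulus cells with hyaluronidase. Cumulus and granulosa cell markers, of which 10 of 12 had counts, summed to 6.07, 10.3 and 66.7 CPM in control replicates 1, 2 and 3, and to 1.38, 9.58 and 11.9 CPM in delipidated replicates 1, 2 and 3. *Tnfaip6* was the most abundant of them per length, *Foxl2* and *Ptx3* had a count of 0 in all 6 libraries, and *Cyp11a1*, *Inha*, *Inhba*, *Fshr* and *Pgr* had 0 in the delipidated ones. Of these, *Inha*, *Fshr* and *Pgr* had no more than 4 counts in any control. *Cyp11a1* had 653 counts in control replicate 3 against 4 and 0 in control replicates 1 and 2. Leukocyte markers, 8 of 8 with counts and led by *Cd68*, summed to between 6.11 and 11.6 CPM in control and between 2.77 and 12.6 CPM in delipidated embryos, with *Lyz2* and *Tyrobp* at 0 in all delipidated libraries and *Fcer1g* at 0 in all controls. *Cd52* had 0, 3 and 29 counts in control replicates 1, 2 and 3, and 49, 19 and 11 in delipidated replicates 1, 2 and 3. Oviduct epithelium markers, 7 of 7 with counts, ran from 90.7 to 249 CPM in control and from 113 to 205 CPM in delipidated embryos, led by *Epcam*. Most of these sums was *Epcam* alone, at 82.5, 221 and 111 CPM in control replicates 1, 2 and 3. In delipidated replicates 1, 2 and 3 it was at 156, 193 and 108 CPM. *Pax8*, *Foxj1* and *Muc1* had no more than 23 counts in any library. The part of all these markers in the *Srebf1* result was not tested either.

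*Srebf2* (ENSMUSG00000022463, plus strand, chr15:82147181-82205379) encodes SREBP-2, the factor best known for driving genes of cholesterol synthesis and uptake. It was measured at 6.75, 3.57 and 7.15 CPM in control replicates 1, 2 and 3, and at 9.28, 3.01 and 7.13 CPM in delipidated replicates 1, 2 and 3. Both groups held a low pool, replicate 2 in each, and their ranges overlapped. Means were 5.82 ± 1.96 CPM (SD, n = 3) in control and 6.47 ± 3.19 CPM (SD, n = 3) in delipidated embryos, a ratio of 1.11. An exact two-sided permutation test gave p = 0.9. The log2 fold change of 0.16 had a 95% confidence interval from -1.30 to 1.61, wide enough to hold a change of more than 1 in both directions. It turned to -0.10 without control replicate 2 and to -0.20 without delipidated replicate 1.

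Along *Srebf2*, counts were also patchy. Of its 19 exonic parts, 16 had a count in some library and 1 had a count in all 6. Delipidated replicate 1, the highest pool, had 188 counts, of which 56 fell on each of 2 parts within chr15:82178717-82179547. The 3′ part of 1680 bp held 0, 12 and 12 counts in control replicates 1, 2 and 3, and 19, 0 and 28 in delipidated replicates 1, 2 and 3. Even the longest part of the gene was thus empty in a pool of each group.

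The balance between the factors was described per kb of exonic parts. *Srebf1* over *Srebf2* lay between 0.907 and 2.57 in the controls, with a median of 0.915, and between 0.222 and 1.04 after delipidation, with a median of 0.338. The ranges overlapped, since the delipidated pool with the least *Srebf2* had a ratio above those of 2 controls.

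Promoter sequences are shown for both factors, at both coding starts of *Srebf1* named above, and for *Insig1*, because the *Srebf1* start could not be read from the counts and because *Srebf2* and *Insig1* are themselves known targets of SREBPs. The RefSeq table (GRCm38.p6) matched all 7 genes, with 12 windows of 250 bases before a start. Windows were searched on both strands for the E-box CACGTG, the sterol response type TCACNCCA, the CCAAT box CCAAT and the GC box GGGCGG, none of which contains another. Among all 32851 windows of this length, 6.02% held the E-box, 3.67% the sterol response type, 33.8% the CCAAT box and 32.7% the GC box. Of the 12 windows of the SREBP genes, 2 held the E-box, 1 the sterol response type, 5 the CCAAT box and 8 the GC box. Capitals mark the E-box, the sterol response type and the CCAAT box, read on either strand. *Srebf1* has 3 windows, all on the minus strand. The window at chr11:60210472-60210721 lies before the first exon of Srebf1-207, which had 0 counts, and holds a CCAAT box. That at chr11:60220628-60220877 lies before the first exon of Srebf1-201 and holds none of the capitalised motifs, and that at chr11:60222582-60222831, before Srebf1-204 and not printed, holds a CCAAT box. The *Srebf2* window, chr15:82147019-82147268 on the plus strand, holds the sterol response type and a CCAAT box, and the *Insig1* window, chr5:28071162-28071411 on the plus strand, a CCAAT box and an E-box. A match is a description of the letters and not a binding site.
Srebf1, start of Srebf1-207: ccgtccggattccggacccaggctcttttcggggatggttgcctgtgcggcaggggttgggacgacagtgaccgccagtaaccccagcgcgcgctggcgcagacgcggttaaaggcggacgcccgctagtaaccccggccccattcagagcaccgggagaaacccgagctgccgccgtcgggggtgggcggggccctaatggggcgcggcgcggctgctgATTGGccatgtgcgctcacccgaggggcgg
Srebf1, start of Srebf1-201: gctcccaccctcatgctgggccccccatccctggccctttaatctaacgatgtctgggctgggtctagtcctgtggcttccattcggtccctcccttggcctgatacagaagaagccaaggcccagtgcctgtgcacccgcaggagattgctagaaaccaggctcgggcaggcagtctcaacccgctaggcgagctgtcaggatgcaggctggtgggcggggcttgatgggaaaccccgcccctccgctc
Srebf2: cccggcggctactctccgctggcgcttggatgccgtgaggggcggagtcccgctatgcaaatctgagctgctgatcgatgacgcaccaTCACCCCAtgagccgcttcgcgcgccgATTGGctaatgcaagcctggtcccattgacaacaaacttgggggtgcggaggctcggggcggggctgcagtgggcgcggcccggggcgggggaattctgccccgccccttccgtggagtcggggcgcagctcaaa
Insig1: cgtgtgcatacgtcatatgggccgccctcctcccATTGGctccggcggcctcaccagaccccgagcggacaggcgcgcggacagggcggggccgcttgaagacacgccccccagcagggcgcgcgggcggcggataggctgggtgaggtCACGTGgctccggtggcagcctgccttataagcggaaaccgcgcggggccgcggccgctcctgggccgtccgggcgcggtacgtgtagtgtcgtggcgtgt

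*Scap* (ENSMUSG00000032485, plus strand, chr9:110333288-110384950) encodes the sterol-sensing escort of both factors. Its level was 103, 83.2 and 68.2 CPM in control replicates 1, 2 and 3, and 73.2, 95.8 and 103 CPM in delipidated replicates 1, 2 and 3. High and low pools occurred in both groups, which covered nearly the same range. The delipidated mean was 1.07 times the control mean, with p = 0.8 in an exact two-sided permutation test. The log2 fold change of 0.09 had a 95% confidence interval from -0.48 to 0.67, which did not reach a change of 1 in either direction. Its sign was not stable, at -0.04 without control replicate 3 and -0.01 without delipidated replicate 3.

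Part of the *Scap* signal came from a stretch that another gene shares. The unclassified gene 5830462I19Rik lies on the opposite strand at chr9:110372048-110375430, and its exons cover 10 of the 42 *Scap* parts, 985 bp in all. These 10 parts held 347, 535 and 371 counts in control replicates 1, 2 and 3, and 793, 801 and 579 in delipidated replicates 1, 2 and 3. The remaining parts held 877, 840 and 526 in the controls, and 689, 759 and 875 after delipidation. In CPM the shared stretch came to 29.3, 32.4 and 28.2 in control replicates 1, 2 and 3, and to 39.2, 49.2 and 40.9 in delipidated replicates 1, 2 and 3. It was thus higher in each delipidated library than in any control, and the rest of the gene overlapped between the groups. Without the shared stretch *Scap* was at 74.0, 50.8 and 39.98 CPM in control replicates 1, 2 and 3, and at 34.0, 46.6 and 61.8 CPM in delipidated replicates 1, 2 and 3, with a log2 fold change of -0.21 in place of 0.09. For 14 pairs of parts that have the same ends on opposite strands and counts on both, the smaller count divided by the larger had a median of 1.0. The counts thus do not tell the strands apart, and reads of 5830462I19Rik cannot be separated from those of *Scap*. 5830462I19Rik itself had 130, 212 and 147 counts in control replicates 1, 2 and 3. In delipidated replicates 1, 2 and 3 it had 297, 252 and 194. These were fewer than the counts on the 10 *Scap* parts in every library. A read counts on each part it spans, and how much of the stretch came from either gene was not tested.

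**Figure D3:**
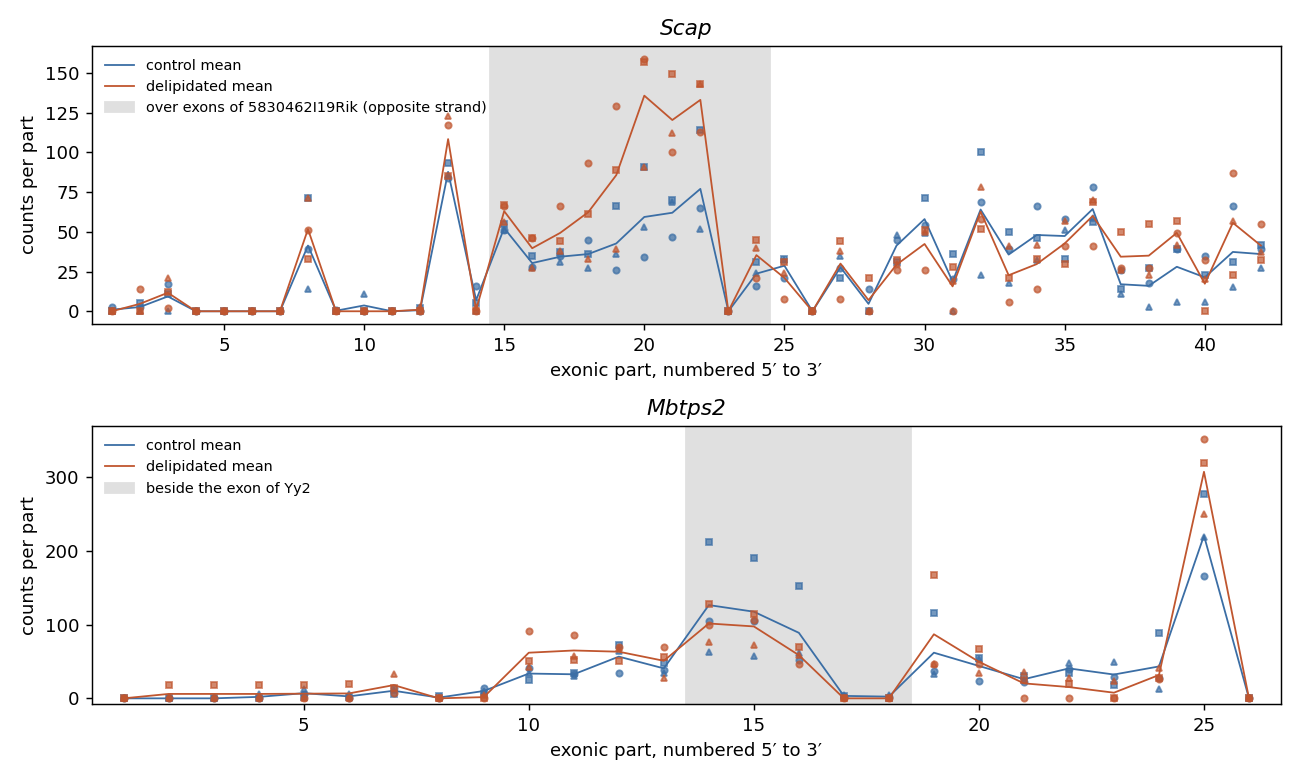
Raw counts, not corrected for depth, on each exonic part of *Scap* and *Mbtps2*, numbered from 5′ to 3′, with points for the 6 libraries (circles, squares and triangles for replicates 1, 2 and 3) and lines for the mean of control (blue) and delipidated (orange) embryos. Grey marks the 10 *Scap* parts over exons of 5830462I19Rik, most of which have a higher delipidated mean, and the 5 *Mbtps2* parts beside the exon of *Yy2*, of which 3 are highest in control replicate 2.

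*Insig1* (ENSMUSG00000045294, plus strand, chr5:28071363-28078662) encodes the retention protein that is itself induced by SREBPs in many cells. Its level was 57.7, 64.3 and 56.6 CPM in control replicates 1, 2 and 3, and 48.1, 71.3 and 55.3 CPM in delipidated replicates 1, 2 and 3. The controls lay close together, and the delipidated pools held both the lowest and the highest value. With means of 59.5 ± 4.17 CPM (SD, n = 3) and 58.2 ± 11.9 CPM (SD, n = 3), the ratio was 0.978. The exact two-sided permutation test gave p = 0.8, and the log2 fold change was -0.03 (95% confidence interval -0.64 to 0.57). It turned to 0.03 without control replicate 2, to 0.09 without delipidated replicate 1 and to 0.00 without delipidated replicate 3. Of the 7 exonic parts, 6 were counted in all 6 libraries, and the part at chr5:28074666-28075061 had 0 counts throughout. The 3′ part at chr5:28077052-28078662, 1611 bp long, held 50.7% of the counts of the gene over all libraries.

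*Insig2* (ENSMUSG00000003721, minus strand, chr1:121304353-121332589) encodes the second retention protein and was at the edge of detection. Its counts were 26, 20 and 0 in control replicates 1, 2 and 3, and 0, 42 and 8 in delipidated replicates 1, 2 and 3. A pool without counts thus occurred in each group. A count of 0 allows up to 3 counts, which is 0.228 CPM in control replicate 3 and 0.148 CPM in delipidated replicate 1. Where it was found, *Insig2* was at 2.19 and 1.21 CPM in control replicates 1 and 2, and at 2.58 and 0.565 CPM in delipidated replicates 2 and 3. The 42 counts of delipidated replicate 2 were spread as 6 on each of 7 parts, and the 8 of delipidated replicate 3 as 4 on each of 2 parts. Since a read is counted on every part it spans, fewer reads than counts may lie behind these values. The log2 fold change of -0.11 had a 95% confidence interval from -4.20 to 3.98, too wide to show a difference between the groups. Its sign turned without control replicate 1 (0.77), without delipidated replicate 1 (0.47) and without delipidated replicate 3 (0.18).

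*Mbtps1* (ENSMUSG00000031835, minus strand, chr8:119508156-119558735) encodes the site-1 protease, which makes the first cut. It was measured at 86.4, 126 and 123 CPM in control replicates 1, 2 and 3, and at 84.8, 87.8 and 105 CPM in delipidated replicates 1, 2 and 3. Control replicates 2 and 3 were above all delipidated pools, and control replicate 1 lay among them. The means of 112 ± 22.0 CPM (SD, n = 3) and 92.5 ± 10.8 CPM (SD, n = 3) gave a ratio of 0.828 and an exact permutation p (two-sided) of 0.3. The log2 fold change was -0.27 (95% confidence interval -0.81 to 0.26) and stayed negative in every fit without one library, from -0.42 to -0.18. All 39 exonic parts had counts, and 30 had them in all 6 libraries.

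*Mbtps2* (ENSMUSG00000046873, minus strand, chrX:157535371-157598715) encodes the site-2 protease, which makes the second cut within the membrane. Its level was 66.8, 83.3 and 64.2 CPM in control replicates 1, 2 and 3, and 51.9, 77.2 and 63.6 CPM in delipidated replicates 1, 2 and 3. Replicate 2 was the highest in both groups, and the groups overlapped. The delipidated mean was 0.899 times the control mean, with an exact permutation p (two-sided) of 0.4 and a log2 fold change of -0.15 (95% confidence interval -0.75 to 0.44).

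*Mbtps2* contains the retrogene *Yy2*, on the same strand at chrX:157566119-157568985, inside an exon of some *Mbtps2* transcripts. The 4 parts that both genes share were counted for neither, and held 754, 1163 and 616 counts in control replicates 1, 2 and 3, and 816, 1046 and 765 in delipidated replicates 1, 2 and 3. The 5 *Mbtps2* parts directly beside *Yy2*, 286 bp in all, held 266, 558 and 193 counts in the controls, and 253, 313 and 208 after delipidation. Control replicate 2 was the highest there. Without these 5 parts the *Mbtps2* log2 fold change was 0.03 in place of -0.15, and reads of the *Yy2* transcript and of *Mbtps2* cannot be told apart there. With all parts it was -0.03 without control replicate 2, -0.02 without delipidated replicate 1 and -0.31 without delipidated replicate 2.

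The order of the levels was read per kb of exonic parts, as the mean CPM per kb over the 6 libraries. *Insig1* came first at 19.03 ± 2.58 (SD, n = 6), above 81.9% of the genes tested. *Scap* followed at 11.8 ± 2.03, *Mbtps1* at 9.69 ± 1.78 and *Mbtps2* at 9.37 ± 1.53, above 74.0%, 70.6% and 70.0% of the genes tested. The factor genes stood well below, *Srebf2* at 1.23 ± 0.480 and *Srebf1* at 0.992 ± 0.563, above 28.5% and 24.3% of the genes tested. By control means *Srebf1* was above *Srebf2*, at 1.46 against 1.17, an order found among the controls in replicate 2 alone. By delipidated means *Srebf1* was below, at 0.525 against 1.30. *Insig2* was last at 0.314 ± 0.318, above 6.93%. The places of *Scap* and *Mbtps2* include the stretches they share with other genes. Without the parts over the opposite-strand gene *Scap* was at 7.93 ± 2.27 (SD, n = 6), below *Mbtps1* in 5 of 6 libraries, and without the parts beside *Yy2*, *Mbtps2* was at 6.95 ± 0.889 (SD, n = 6). Both were then still above the factor genes and below *Insig1* in 6 of 6. Summed over all parts, the machinery was therefore more abundant per length than the factors it serves, with *Insig2* as the exception.

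Between neighbours in this order, 2 steps were larger than the spread over libraries. *Insig1* was above *Scap* in 6 of 6 libraries, with a 1.61-fold difference in means and ranges that did not overlap. *Mbtps2* was above *Srebf2* in 6 of 6 libraries, with a 7.61-fold difference in means and no overlap. *Scap* and *Mbtps1*, *Mbtps1* and *Mbtps2*, and *Srebf2* and *Srebf1* each kept their order in 4 of 6 libraries, with overlapping ranges. *Srebf1* was above *Insig2* in 5 of 6, and these ranges overlapped too. The order changed when a single part was read per gene, but that part is not the same portion of each gene. Read from the longest exonic part of each gene alone, the levels in CPM per kb were 18.3 for *Insig1*, 5.48 for *Mbtps2*, 0.803 for *Mbtps1*, 0.452 for *Srebf2*, 0.268 for *Scap*, 0.0948 for *Insig2* and 0.0856 for *Srebf1*. *Scap* then stood below *Srebf2*, *Mbtps1* well below *Mbtps2*, and *Srebf1* last. The longest part of *Insig1* and of *Srebf2* is the last one, at the 3′ end, whereas those of *Scap* and *Mbtps1* lie inside the gene. In *Scap* it held 16, 5 and 0 counts in control replicates 1, 2 and 3, where the adjoining part of 130 bp held 84, 93 and 86. Levels on the longest parts thus do not compare like portions of the genes.

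**Figure D4:**
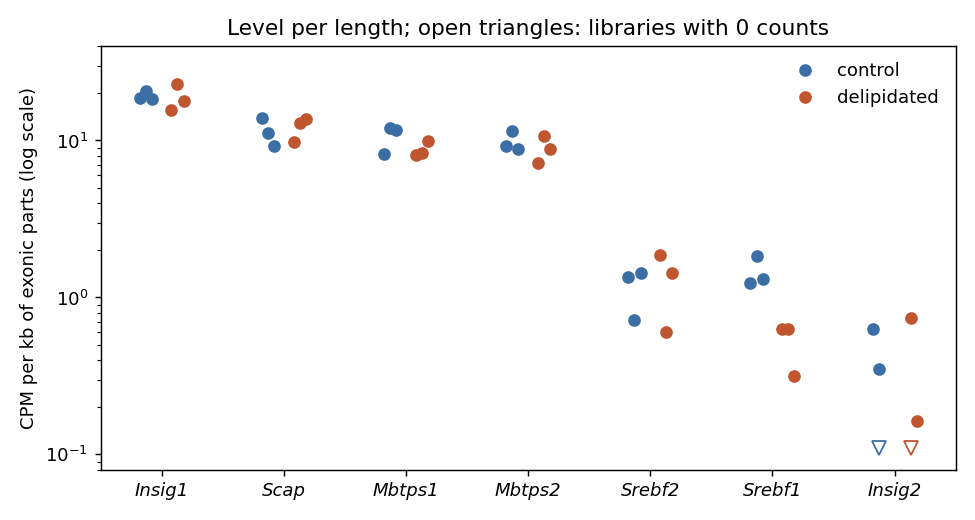
CPM per kb of exonic parts (log axis) of the 7 SREBP genes in each control (blue) and delipidated (orange) library, ordered by the mean over 6 libraries, with open triangles at the lower edge for libraries with 0 counts. *Insig1*, *Scap*, *Mbtps1* and *Mbtps2* stand above the factor genes in every library, and *Insig2* has 2 libraries at 0.

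Ratios within a library followed the same split. *Scap* over *Srebf1*, per kb, lay between 6.09 and 11.3 in the controls and between 15.6 and 43.5 after delipidation. These ranges did not overlap, but *Scap* here includes the 10 parts over the opposite-strand gene. Without those parts they lay between 4.29 and 9.34 in the controls and between 8.37 and 30.2 after delipidation, which overlapped. *Scap* over *Srebf2* lay between 6.40 and 15.6 in the controls and between 5.28 and 21.3 after delipidation, which overlapped. *Insig1* over *Scap* lay between 1.34 and 2.00 in the controls and between 1.30 and 1.79 after delipidation, with medians of 1.86 and 1.58. Without the same 10 parts it lay between 1.63 and 2.95 in the controls and between 1.87 and 3.19 after delipidation, and the medians of 2.64 and 2.95 were in the reverse order. *Mbtps1* over *Mbtps2* lay between 0.888 and 1.31 in the controls and between 0.781 and 1.13 after delipidation, and without the parts beside *Yy2* between 1.28 and 1.68 and between 1.00 and 1.42. These last ratios overlapped between the groups either way.

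For each factor the genes with the most similar course over the 6 libraries were taken from 10100 genes, by the root mean square difference of centred log2 values. *Gm45441* at 0.17 and *Znrd1* at 0.18 came closest to *Srebf1*. *Znrd1* was at 48.9, 60.4 and 52.3 CPM in control replicates 1, 2 and 3, and at 20.3, 30.1 and 16.2 CPM in delipidated replicates 1, 2 and 3, with the same high pool, control replicate 2, and the same low pool, delipidated replicate 3. *Pglyrp1* and *Lhfp*, both at 0.15, came closest to *Srebf2*.

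Around the SREBP genes, 92 genes of the pathway in 7 lists were read in the same comparison, of which 90 were tested. edgeR called 0 of them, with 1 lower and 0 higher at an unadjusted p under 0.05, beside 1.74% and 1.15% of all genes tested. DESeq2 without a prior filter called 0 of 92, with 3 lower and 0 higher at an unadjusted p under 0.05. Of the 30967 genes it tested, 2.92% were lower and 1.41% higher. The edgeR log2 fold changes were negative in 48 and positive in 42, with a median of -0.09 beside 0.00 over all genes. Groups did not overlap for 1 gene on the lower side and 2 on the higher side, where 5.05% and 3.81% of all genes tested did not.

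Among the targets of SREBP-2, the 20 genes of cholesterol synthesis had 12 negative and 8 positive values and a median log2 fold change of -0.15, which was -0.09 without control replicate 1 and -0.06 with joined identifiers left out. The squalene synthase gene *Fdft1* and the HMG-CoA synthase gene *Hmgcs1* were the most abundant, at 83.8 and 44.0 CPM per kb, but at 13.8 and 23.1 when read from their longest exonic part. The smallest p-values belonged to the sterol methyl oxidase gene *Msmo1*, with a log2 fold change of -1.53 (unadjusted p 0.0616), and to the sterol desaturase gene *Sc5d*, with -0.93 (unadjusted p 0.156). *Msmo1* was at 7.59, 8.89 and 21.8 CPM in control replicates 1, 2 and 3, and at 1.14, 4.42 and 7.69 CPM in delipidated replicates 1, 2 and 3, and the groups overlapped by delipidated replicate 3. Its log2 fold change was -0.90 without control replicate 3 and -2.20 (unadjusted p 0.0227) without delipidated replicate 3. Of 6 genes of cholesterol uptake and transport 5 were tested, 3 negative and 2 positive, with a median of -0.22. *Tmem97* and *Npc1*, the latter a lysosomal cholesterol exporter, had log2 fold changes of 0.55 and -0.22. *Tmem97* was at 0.23 without delipidated replicate 1, and *Npc1* at -0.44 without control replicate 3 and close to 0 without control replicate 2.

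Among the 16 genes of fatty acid synthesis, 9 values were negative and 7 positive, with a median of -0.17. *Lpin1*, a phosphatidate phosphatase, was the gene whose groups did not overlap, at 10.4, 4.84 and 6.46 CPM in control replicates 1, 2 and 3, and at 1.83, 4.36 and 1.69 CPM in delipidated replicates 1, 2 and 3. Its log2 fold change was -1.46 at an unadjusted p of 0.0722, and -2.03 at 0.0381 without delipidated replicate 2. The desaturase gene *Fads1* was at -2.58 with a standard error of 1.82, resting on counts of 1, 18 and 79 in control replicates 1, 2 and 3, and of 0, 17 and 2 in delipidated replicates 1, 2 and 3. It was -0.58 without control replicate 3 and -5.01 without delipidated replicate 2. The most abundant were *Me1* at 54.7 and *Acly* at 17.2 CPM per kb, enzymes that supply NADPH and acetyl-CoA. From the longest part alone they were at 13.1 and 11.1.

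The route that *Scap* takes was represented by 11 COPII genes, 6 negative and 5 positive, with a median of -0.12. Of these the coat genes *Sec31a* and *Sec24a* were both the most abundant and those with the smallest p, at log2 fold changes of 0.36 (unadjusted p 0.184) and -0.31 (unadjusted p 0.204). Their levels of 29.2 and 19.7 CPM per kb fell to 0.61 and 1.51 on the longest part. *Sec31a* was at 0.66 (unadjusted p 0.0243) without control replicate 1 and at 0.21 without delipidated replicate 3, and *Sec24a* at -0.20 without control replicate 3 and -0.13 without delipidated replicate 3. The 20 genes of degradation and anchoring, which act on INSIG proteins and on SREBPs, had 8 negative and 12 positive values and a median of 0.04. In this list *Ufd1* had a log2 fold change of -0.94, which was -0.39 without control replicate 3, -0.58 without delipidated replicate 1 and -1.43 (unadjusted p 0.0283) without delipidated replicate 3. *Erlin2* was at -1.75, and at -3.51 (unadjusted p 0.0117) without delipidated replicate 2. *Vcp* and *Gsk3a* were the most abundant at 41.2 and 40.8 CPM per kb, and at 15.5 and 22.1 by the longest part. The deubiquitinase gene *Usp20*, named after its values were seen, was the one whose groups did not overlap, at 27.7, 27.0 and 29.6 CPM in control replicates 1, 2 and 3, and at 29.9, 40.1 and 42.9 CPM in delipidated replicates 1, 2 and 3. The highest control and the lowest delipidated pool were nearly equal, and its log2 fold change was 0.42 (unadjusted p 0.220).

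Other substrates of the site-1 protease, the site-2 protease or both numbered 8, of which 7 were tested. Of these, 4 were negative and 3 positive, with a median of -0.09. *Creb3*, a membrane-bound transcription factor of the endoplasmic reticulum, was the gene with an unadjusted p under 0.05. It was at 6.92, 12.4 and 29.6 CPM in control replicates 1, 2 and 3, and at 5.63, 2.95 and 7.98 CPM in delipidated replicates 1, 2 and 3. Control replicate 3 stood far above the rest, and the groups overlapped. Its log2 fold change was -1.56 (unadjusted p 0.0323, adjusted p 1.00) and -0.81 (unadjusted p 0.291) without control replicate 3. The p was also above 0.05 without delipidated replicate 1 (0.0546) and without delipidated replicate 2 (0.101). *Atf6*, a sensor of unfolded proteins, had a log2 fold change of 0.60, and of -0.05 without delipidated replicate 2. *Creb3l4* and *Atf6b* were the most abundant of the list at 36.7 and 9.35 CPM per kb, and at 29.3 and 5.08 by the longest part.

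Nuclear partners of SREBPs and receptors upstream of *Srebf1* came to 11 genes, 6 negative and 5 positive, with a median of -0.11. *Nfyc*, a subunit of the factor that binds CCAAT boxes, was the most abundant at 102 CPM per kb, with *Crebbp* next at 87.4, but the longest part of each gave 7.83 and 64.1. The *Nfyc* groups did not overlap, at 246, 278 and 256 CPM in control replicates 1, 2 and 3, and at 380, 346 and 286 CPM in delipidated replicates 1, 2 and 3. Its log2 fold change was 0.37 (unadjusted p 0.0712), and on the longest part the direction was the reverse, at -0.92 (unadjusted p 0.144). *Rxrb*, a partner of the liver X receptors that activate *Srebf1*, was at -2.14 with a standard error of 1.38 and had 0 counts in delipidated replicate 1. Without delipidated replicate 2, *Rxrb* was at -5.71 (unadjusted p 0.00327). The p of *Nfyc* was 0.0295 without delipidated replicate 3. Medians near 0 changed sign without single libraries: the substrates were at 0.19, the COPII genes at 0.04 and the nuclear partners at 0.01 without control replicate 2. Fatty acid synthesis was at 0.01 without control replicate 3, and without delipidated replicate 1 cholesterol uptake and transport and the substrates were both at 0.03.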

How the data were processed

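The authors deposited raw counts per exonic part for 6 libraries, 425461 parts in each. Per the labels, reads were processed with bcl2fastq 2.20, Trimmomatic 0.36, STAR 2.5.2b (mm10) and featureCounts. Parts were summed by gene with GENCODE M21. Of 33309 parts under joined identifiers of overlapping genes, 27968 were assigned to one gene by its exons and the rest dropped, which took 2.49% to 2.57% of each library's counts. The test was that of edgeR 4.0.16 under R 4.3.3 (filterByExpr, minimum count 10 and total 15, TMM, quasi-likelihood test, Benjamini-Hochberg over 16020 genes). Genes were called at an adjusted p under 0.05 and a log2 fold change beyond 1. Biological variation across genes had a common coefficient of 0.663. Exact permutation tests used SciPy 1.17.1 in Python 3.11.15. The procedure was tested on simulated data.

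Depth per library was between 12164963 and 20059460 gene counts. A count of 0 was given a limit of 3 counts. Named genes were all 7 SREBP genes and, from each pathway list, those with an unadjusted p under 0.05, the 2 most abundant per kb and the 2 with the smallest p. To these were added the 2 genes most like each factor, among those with a mean of at least 5 CPM, and the most abundant gene of each of 6 marker lists. Outside this rule, *Usp20* was named after its values were seen. Further marker genes were named with their counts, such as *Dux*, *Cyp11a1*, *Cd52*, *Dcn* and *Vim*. The SREBP genes and the lists were chosen with earlier results of these data known.

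Alternatives were DESeq2 1.42.0 without a prior filter, edgeR with DESeq2's size factors, edgeR unfiltered, edgeR on genes averaging 50 counts or more, the replicate number as a block, joined identifiers left out, the longest part in place of the sum, and each library left out. DESeq2 kept its default filtering by mean count when p-values were adjusted. Leaving out the *Mbtps2* parts beside *Yy2* and the *Scap* parts over the opposite-strand gene was chosen after seeing the data.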

Additional observations from a re-analysis of the deposited data

How the results depend on the processing

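*Srebf1* kept its negative sign in every alternative that could be run, with an unadjusted p from 0.0175 to 0.147. It was -1.46 (adjusted p 0.563) in DESeq2, where the median of all genes was -0.17, so -1.29 relative to it, and -1.30 relative to the median of -0.18 without a filter in edgeR (unadjusted p 0.0920). With the replicate number as a block it was -1.51 (unadjusted p 0.0707) and among genes averaging 50 counts or more the unadjusted p was 0.0535. No SREBP gene was called under any alternative. Genes called over the whole table numbered 40 lower and 9 higher in DESeq2 and 25 lower and 5 higher without a filter in edgeR, where more genes were tested, and 0 otherwise.

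Each log2 fold change that changed sign had a 95% confidence interval that included 0, and the cause was not tested. Over fits without one library, *Srebf2* ranged from -0.20 to 0.50, *Scap* from -0.04 to 0.27, *Insig1* from -0.20 to 0.09, *Insig2* from -2.0 to 0.77, *Mbtps2* from -0.31 to -0.02 and *Atf6* from -0.05 to 1.04. *Insig2* was 0.50 with the block, where *Rxrb* was -4.07 (unadjusted p 0.0179), *Erlin2* -2.45 and the unadjusted p of *Ufd1* 0.0394 and of *Msmo1* 0.0236. Without a filter in edgeR the unadjusted p was 0.0319 for *Rxrb*, 0.0382 for *Ufd1* and 0.0318 for *Msmo1*, and in DESeq2 0.0313 for *Msmo1* and 0.0364 for *Lpin1*. *Scap* was -0.21 without the parts over the opposite-strand gene, and *Mbtps2* 0.03 without the parts beside *Yy2*.

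Read from the longest exonic part alone, *Srebf2* was 0.78 in place of 0.16, *Mbtps2* was 0.19, *Erlin2* 0.59, *Atf6* -0.19 and *Nfyc* -0.92. With the sign kept, *Sec31a* was 0.68 and *Sec24a* -0.73, in place of 0.36 and -0.31. *Ufd1* was -1.84 and *Usp20* 0.73, in place of -0.94 and 0.42. List medians were then 0.51 for cholesterol uptake and transport, -0.45 for fatty acid synthesis, 0.07 for COPII export, -0.25 for degradation and anchoring and -0.68 for other protease substrates. Levels per kb were then 0.0856 for *Srebf1*, 0.452 for *Srebf2*, 0.268 for *Scap*, 0.803 for *Mbtps1*, 5.48 for *Mbtps2* and 0.0948 for *Insig2*. The longest parts are not the same portion of each gene, and the cause was not tested.

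Without one library the list medians ranged from -0.22 to -0.09 for cholesterol synthesis, from 0.01 to 0.06 for degradation and anchoring, from -0.21 to 0.03 for cholesterol uptake and transport, from -0.37 to 0.01 for fatty acid synthesis, from -0.11 to 0.04 for COPII export, from -0.36 to 0.19 for other protease substrates and from -0.17 to 0.01 for nuclear partners. The last was 0.00 with the block and 0.02 with joined identifiers left out, where cholesterol synthesis was at -0.06. Over all alternatives, 14 of 87 log2 fold changes of SREBP genes, 11 of 91 list medians and 4 of 188 log2 fold changes of other named genes had the opposite sign. With the sign kept, 21, 20 and 24 of them differed by more than 1.5 times.

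*Srebf1* and *Mbtps2* have no value with joined identifiers left out, since all their parts are under such identifiers. *Srebf1*, *Scap* and *Insig2* had too few counts on their longest part to be tested, and *Insig2* had too few for a mean of 50. *Srebf1*, *Srebf2* and *Insig2* had the fewest counts of the 7 genes, and what more depth would change was not tested.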

Other observations

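The microRNA gene *Mir33*, which lies in an intron of *Srebf2* at chr15:82198122-82198190, had 0 counts in all 6 libraries. The paper states a kit for total RNA, and whether these libraries capture microRNAs was not tested. Absence of this microRNA from the embryos cannot be read from the counts.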
